A study of Mus musculus with 6 samples.

Results

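The 9 genes described here encode the proteins that build and coat lipoproteins: 8 apolipoproteins (Apoa1, Apoa2, Apoa4, Apob, Apoc1, Apoc2, Apoe and Apom) and Mttp, the microsomal triglyceride transfer protein. They were taken by gene symbol from tables of 24054 genes, and all 9 were found. RNA-seq had been performed on 3 populations of one double knock-in (DKI) mouse ESC line, in which Foxa2 is fused to Venus on one allele and Sox17 to Cherry on both alleles, so every group carried both reporters. The d0 cells were undifferentiated ESCs sorted as Foxa2-Venus-neg/Sox17-Cherry-neg and grown with serum and LIF. The d3F cells were mesendoderm cells sorted as Foxa2-Venus-pos/Sox17-Cherry-neg on day 3, and the d5FS cells were endoderm cells sorted as Foxa2-Venus-pos/Sox17-Cherry-pos on day 5 of culture with Wnt3a and Activin A. The differentiation medium had no serum but contained a lipid-rich albumin (AlbuMAX), so stage and medium cannot be told apart between d0 and the later populations. Each population had 2 replicates, which the methods describe as independent and the sample list as an mRNA and a total RNA library. The line had been kept on irradiated fibroblast feeders before several feeder-free passages.

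Lipoproteins are particles that carry triglycerides and cholesterol through body fluids. Apob is the scaffold of the triglyceride-rich particles and of LDL, and it is secreted only after Mttp has loaded it with lipid in the endoplasmic reticulum. The smaller apolipoproteins exchange between particles, form HDL with Apoa1 as its main protein, and serve as ligands of receptors (Apoe) or as activators and inhibitors of lipid enzymes (the Apoc proteins). In the embryo the visceral endoderm of the yolk sac secretes such particles, and liver and intestine, which both derive from definitive endoderm, do so later.

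The deposited expected counts summed to between 16457729 and 22768686 per library. Levels of one gene are given as CPM, counts scaled to a common library size after TMM normalization, and levels of different genes are compared only within a library as TPM, which corrects for transcript length. Fold changes came from edgeR's quasi-likelihood test over 14539 genes, and a gene was called where the Benjamini-Hochberg adjusted p was under 0.05 and the log2 fold change exceeded 1 in size. The median log2 fold change of all genes lay between -0.01 and 0.02 in the 3 pairwise comparisons. All 7 pluripotency markers fell and all 10 definitive endoderm markers rose from d0 to d5FS (10.4% and 12.4% of all genes), so the labels and the markers did not differ in direction. Foxa2 and Sox17 are among these 10, and the cells were sorted by their reporters, so their rise was not independent of the labels. In bulk samples a higher level in every cell and a larger share of expressing cells cannot be told apart.

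Foxa2, the factor by whose reporter d3F and d5FS cells were sorted, binds DNA through a forkhead motif. The RefSeq promoter table (GRCm38.p6) matched 8 of the 9 genes with 11 promoters, and the 250 bases before each start were searched on both strands for the letters TGTTTAC or TGTTTGC. They occurred in 3 of the 11 promoters, those of Apoa1, Apob and 1 of the 2 listed for Apoa2, and in 7.29% of all 32851 promoters of the table. Those 3 promoters are shown with the motif letters in capitals. The searched windows of Apoa1 and Apob end at base 46228629 and base 7977676, after the GENCODE starts of these genes. Only their first 200 and 202 bases, which hold the matches, are shown. The Apoa1 promoter (chr9:46228380-46228579, plus strand) held the motif at 2 places, with 6 bases between them. The Apob promoter (chr12:7977427-7977628, plus strand) held it once, as the complement GCAAACA. The Apoa2 promoter (chr1:171224804-171225053, plus strand) held it once, and it ends where the GENCODE gene begins but lies inside the RefSeq gene, which begins further upstream.
Apoa1: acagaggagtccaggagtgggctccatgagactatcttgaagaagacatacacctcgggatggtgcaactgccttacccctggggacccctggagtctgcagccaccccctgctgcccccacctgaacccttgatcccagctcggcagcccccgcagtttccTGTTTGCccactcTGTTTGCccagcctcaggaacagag
Apob: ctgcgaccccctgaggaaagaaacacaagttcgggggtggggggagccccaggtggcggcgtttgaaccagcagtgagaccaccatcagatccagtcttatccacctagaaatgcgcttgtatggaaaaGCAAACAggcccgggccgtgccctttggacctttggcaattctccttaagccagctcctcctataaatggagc
Apoa2: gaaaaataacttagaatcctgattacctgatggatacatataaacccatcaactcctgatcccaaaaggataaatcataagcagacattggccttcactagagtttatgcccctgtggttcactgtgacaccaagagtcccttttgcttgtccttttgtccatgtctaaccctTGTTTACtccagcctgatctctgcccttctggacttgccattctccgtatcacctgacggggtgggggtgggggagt

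The GATA letters AGATAA or TGATAA were found in 1 of the 11 promoters, that of Apoc2, and in 16.6% of all promoters. The Hnf4 letters CAAAGTCCA were in none of the 11 and in 0.384% of all. With the 50 bases after the start included, the forkhead letters were in 4 of the 11 promoters, with Apoe added, and in 8.48% of all. The GATA letters were then in 2, with Apoa1 added, and in 18.6% of all. These matches describe letters in a window, and no binding was measured in the data used here.

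From ESCs to endoderm, 5 of the 9 genes rose (Apoa1, Apoa4, Apob, Apom and Mttp) and 1 fell (Apoa2), while Apoc1, Apoc2 and Apoe did not pass the test. Over all tested genes, 12.4% were called higher and 10.4% lower in d5FS than in d0. The median log2 fold change of the 9 genes was 2.24, compared with 0.02 for all genes. Apoa4, which had no count in d0, lay above this median also when its change was set to the lower bound given with its values. Taken by step, 4 of the 9 genes rose from d3F to d5FS (Apoa1, Apoa4, Apob and Mttp) and none fell, compared with 1.08% of all genes called higher and 0.461% called lower. With the replicate number as a block, 7 of the 9 rose in this step, beside 476 of all tested genes called higher. In the same step 8 of the 9 genes had both d5FS libraries above both d3F libraries, which was the case for 26.5% of all genes. From d0 to d3F none of the 9 genes was called by edgeR without the block, compared with 2.8% of all genes called higher and 1.9% called lower. With the block, 2 of the 9 fell (Apoa2 and Apoc2), beside 510 of all tested genes called lower. At an unadjusted p under 0.05 there were 3 of the 9 in that step, Apob (higher) and Apoa2 and Apoc1 (lower), and DESeq2 called these 3 with its Wald test and 0 with its threshold test for a log2 fold change over 1. The median over the 9 genes was -0.30 in the first step and 3.75 in the second.

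**Figure D1:**
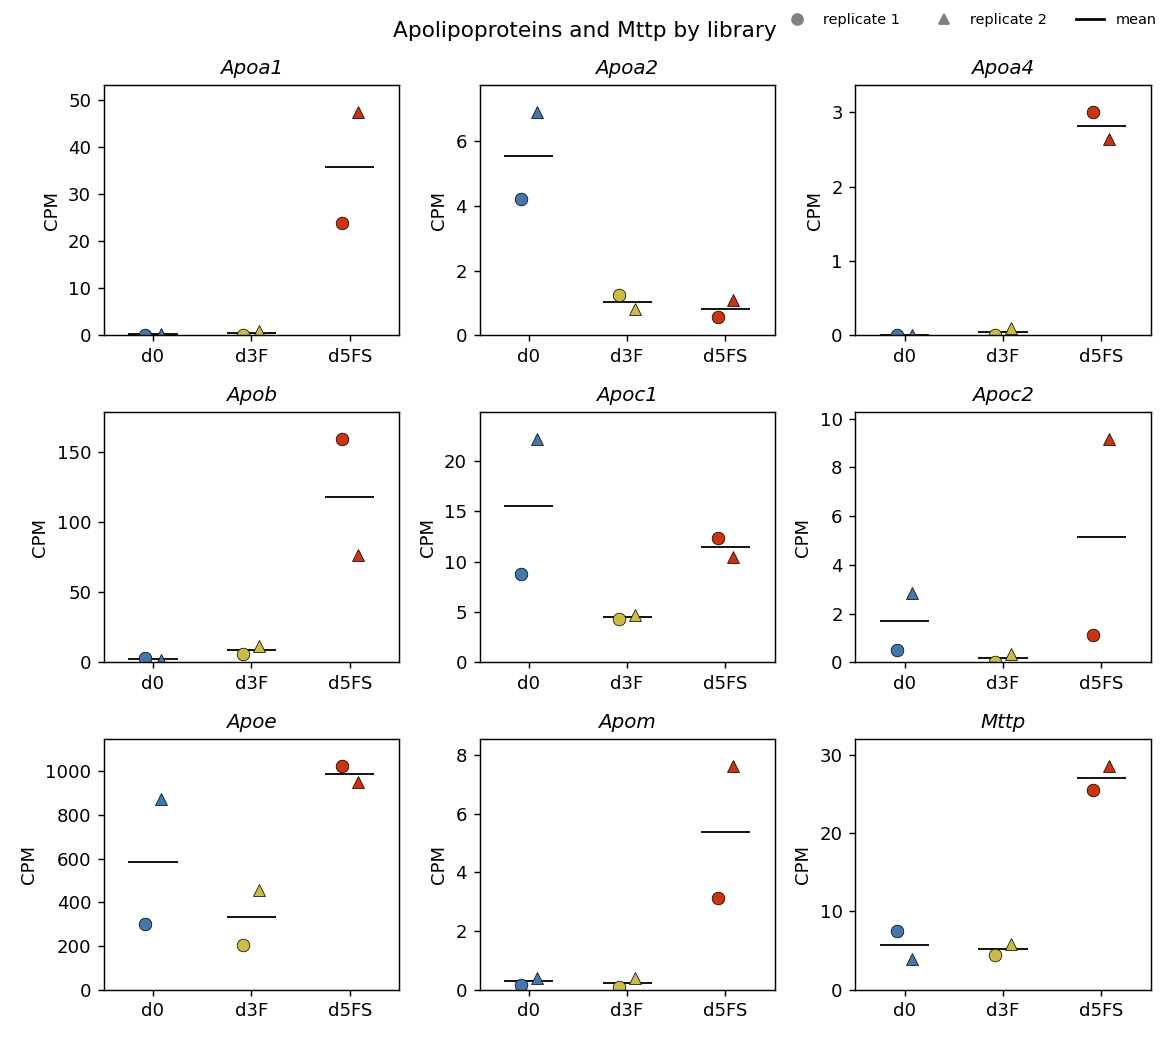
CPM of each of the 9 genes (vertical axis, linear, from 0) in the d0, d3F and d5FS libraries, with circles for replicate 1, triangles for replicate 2 and a line at the mean of 2. Apoa1, Apoa4, Apob, Apoe, Apom and Mttp lay higher in both d5FS libraries than in all 4 others. Apoa2 was highest in d0, and Apoc1 and Apoc2 were lowest in d3F. The mean of Apoe was lowest in d3F, but its d0 and d3F libraries overlapped.

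Apob (chr12:7977648-8016835 of mm10, plus strand) encodes the non-exchangeable protein of chylomicrons, VLDL and LDL. It was measured at 3.38 and 1.95 CPM in d0, 6.13 and 11.4 CPM in d3F, and 159 and 76.8 CPM in d5FS. The 3 populations did not overlap, and each was higher than the one before. The log2 change was 1.71 ± 0.50 (SE) in the first step, with an adjusted p of 0.092, and 3.75 ± 0.52 in the second, with an adjusted p of 0.0193. Apob rose 44.1-fold from d0 to d5FS (log2 5.46 ± 0.57, adjusted p = 0.00174), and this call was kept in all 14 alternative fits. The call of the second step was lost without d3F replicate 1 (log2 3.36, adjusted p = 0.144) and without d5FS replicate 1 (3.12, adjusted p = 0.101).

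Mttp (chr3:138089854-138144968, minus strand) transfers lipid onto nascent Apob. Its level was 7.50 and 3.95 CPM in d0, 4.43 and 5.86 CPM in d3F, and 25.5 and 28.6 CPM in d5FS. The d0 and d3F libraries overlapped (log2 -0.16 ± 0.41, adjusted p = 0.879), and both d5FS libraries lay above all others. Mttp rose 5.26-fold from d3F to d5FS (log2 2.39 ± 0.42, adjusted p = 0.0373) and 4.71-fold from d0 to d5FS (log2 2.24 ± 0.42, adjusted p = 0.00921). The call of the second step was lost when any of the 4 d3F and d5FS libraries was left out (log2 2.19 without d3F replicate 1, 2.60 without d3F replicate 2, 2.46 without d5FS replicate 1 and 2.31 without d5FS replicate 2, adjusted p from 0.116 to 0.315). Both calls were lost in the threshold test of DESeq2, which asks for a log2 fold change over 1 (adjusted p = 0.108 and 0.0788).

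RefSeq lists more than one Mttp transcript, and the deposited gene length of Mttp is the mean transcript length weighted by the estimated abundances. It was 4136 and 4205 bases in d0, 4272 and 4168 bases in d3F, and 4020 and 3980 bases in d5FS. Both d5FS libraries were thus below all 4 others, by a difference that exceeded the spread of the replicates, and no test was run on it. Relative to Mttp, the TPM of Apob was 0.128 and 0.133 in the d0 libraries, 0.411 and 0.567 in those of d3F, and 1.74 and 0.741 in those of d5FS. This ratio was higher in each population than in the one before.

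Apoa1 (chr9:46228580-46230466, plus strand), the main protein of HDL and an activator of the cholesterol-esterifying enzyme Lcat, is the gene whose promoter held the forkhead letters at 2 places. It was at 0.0877 and 0.359 CPM in d0 (2 and 7 counts), 0.162 and 0.859 CPM in d3F, and 23.9 and 47.6 CPM in d5FS. The d0 and d3F libraries overlapped, and both d5FS libraries were far above them. The log2 change was 1.17 ± 0.94 in the first step (adjusted p = 0.555) and 6.16 ± 0.82 in the second, a 71.6-fold rise with an adjusted p of 0.0184. Over both steps it was 7.33 ± 0.89 (adjusted p = 0.00263), and this call was kept in all 13 alternative fits that tested the gene, with 6.60 without d0 replicate 1, 8.58 without d0 replicate 2, 7.73 without d5FS replicate 1 and 6.75 without d5FS replicate 2. The change of the second step was 7.72 without d3F replicate 2 (adjusted p = 0.0271), and its call was lost without d3F replicate 1 (log2 5.35, adjusted p = 0.11), d5FS replicate 1 (6.56, adjusted p = 0.0672) or d5FS replicate 2 (5.57, adjusted p = 0.0897).

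Apoa4 (chr9:46240696-46243459, plus strand) lies 10375 bases from Apoa1 and encodes an apolipoprotein that the intestine secretes on chylomicrons. It had no count in either d0 library, 0 and 2 counts in d3F, and 53 and 46 counts in d5FS, or 3.01 and 2.64 CPM. Set against 3 counts over the d0 libraries (0.0709 CPM), its mean in d5FS was at least 39.8-fold higher than in d0, and the test gave an adjusted p of 0.00654. From d3F to d5FS the ratio of the summed counts, scaled to library size, was 62.7, with an exact 95% interval of 16.9 to 525 that covers counting error only (adjusted p of the edgeR test 0.0456). The call from d0 to d5FS was kept in all 13 alternative fits that tested the gene. That from d3F to d5FS was lost when any of the 4 libraries concerned was left out (adjusted p = 0.316 without d3F replicate 1, 0.0826 without d3F replicate 2, 0.232 without d5FS replicate 1 and 0.168 without d5FS replicate 2). At 2 counts in d3F, no change from d0 to d3F was detectable at this depth.

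Apom (chr17:35128997-35132050, minus strand), the HDL protein that carries sphingosine-1-phosphate, was at 0.175 and 0.410 CPM in d0 (4 and 8 counts), 0.0812 and 0.404 CPM in d3F (2 and 8 counts), and 3.12 and 7.62 CPM in d5FS. Both d5FS libraries lay above the other 4, which overlapped. It rose 18.2-fold from d0 to d5FS (log2 4.19 ± 0.86, adjusted p = 0.013), a call that was lost without d5FS replicate 2 (log2 3.42, adjusted p = 0.0735). From d3F to d5FS its log2 change of 4.49 ± 0.88 had an adjusted p of 0.0511, and with the replicate number as a block the change was 4.55 with an adjusted p of 0.0135. Without d0 replicate 1 and without d0 replicate 2 the gene also passed in that step (log2 4.48 in both). It did not pass when any d3F or d5FS library was left out, with log2 changes from 3.69 (without d5FS replicate 2) to 5.94 (without d3F replicate 2).

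Apoa2 (chr1:171225054-171226379, plus strand), an HDL protein that in the adult is made by the liver, went the other way. Its level was 4.21 and 6.92 CPM in d0, 1.26 and 0.808 CPM in d3F, and 0.567 and 1.09 CPM in d5FS. Both d0 libraries were above all 4 others, and d3F and d5FS overlapped. Apoa2 fell by 2.74 ± 0.60 (log2) between d0 and d5FS (adjusted p = 0.0161). The decrease of 2.41 ± 0.58 from d0 to d3F had an adjusted p of 0.0557, and 0.0451 with the replicate block. The d0 to d5FS call was lost without d0 replicate 2 (log2 -2.33, adjusted p = 0.0545), d5FS replicate 1 (-2.35, adjusted p = 0.108) or d5FS replicate 2 (-3.27, adjusted p = 0.0502) and in the threshold test of DESeq2 (-2.79, adjusted p = 0.092), and the d0 to d3F change passed without d0 replicate 1 (-2.73, adjusted p = 0.04). The forkhead letters were in the Apoa1 promoter and in 1 of the 2 listed for Apoa2, and their part in the change of either gene was not tested. The TPM of Apoa1 relative to Apoa2 was 0.0079 and 0.0214 in the d0 libraries, 0.0524 and 0.44 in those of d3F, and 17.2 and 18.1 in those of d5FS, so that Apoa2 was the more abundant transcript in all d0 and d3F libraries and Apoa1 in both d5FS libraries.

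**Figure D2:**
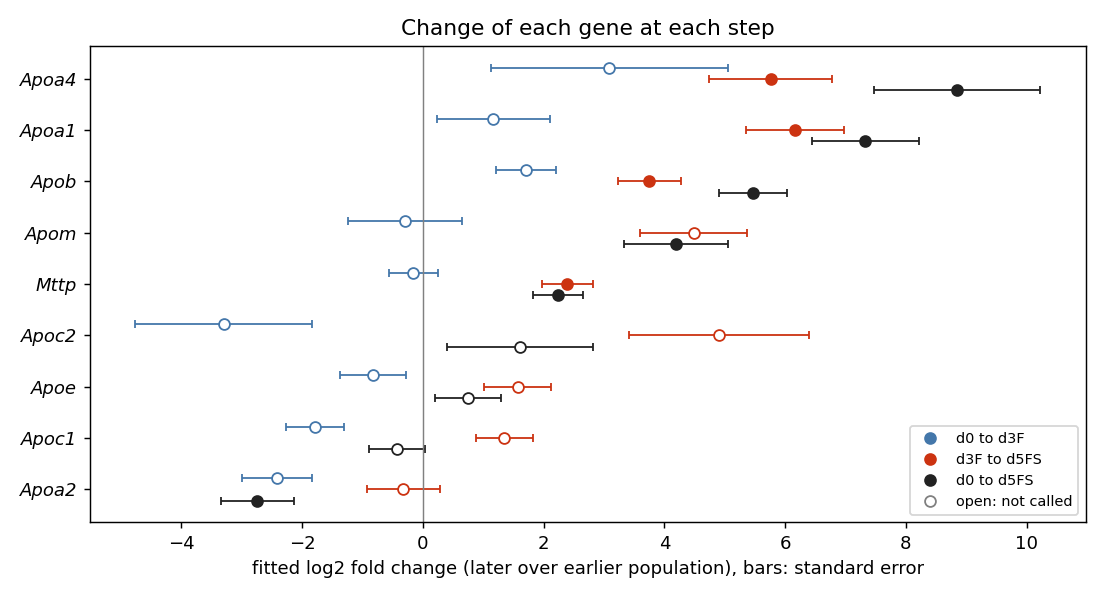
Fitted log2 fold change (horizontal axis) of each gene from d0 to d3F (blue), d3F to d5FS (red) and d0 to d5FS (black), with bars of 1 SE, filled points for called changes and open points for others. All first-step points are open, Apoa1, Apoa4, Apob and Mttp have filled second-step points, and Apoa2 is the gene with a filled point below 0. The Apoa4 values rest on a d0 level of 0 counts and depend on the prior count of the fit.

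Apoe (chr7:19696109-19699188, minus strand), the ligand through which particles bind the LDL receptor family, was by far the most abundant of the 9 genes. It was at 299 and 873 CPM in d0, 206 and 457 CPM in d3F, and 1023 and 949.9 CPM in d5FS. The d0 and d3F libraries overlapped, and both d5FS libraries were higher than the other 4. None of the pairwise changes passed in the fit without a block (log2 -0.82 ± 0.55, adjusted p = 0.464, for the first step, and 0.75 ± 0.55, adjusted p = 0.344, for d0 to d5FS). From d3F to d5FS the log2 change was 1.57 ± 0.56 with an adjusted p of 0.191, and 1.76 with an adjusted p of 0.0461 with the replicate block.

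Apoc1 (chr7:19689481-19692660, minus strand), a small protein that hinders receptor uptake of particles, lies 3585 bases from Apoe. Its level was 8.77 and 22.1 CPM in d0, 4.26 and 4.70 CPM in d3F, and 12.4 and 10.5 CPM in d5FS. Both d3F libraries were below the other 4, and d0 and d5FS overlapped. The log2 change was -1.78 ± 0.48 in the first step (adjusted p = 0.0734) and 1.35 ± 0.48 in the second (adjusted p = 0.191). Without d0 replicate 1 the first-step change was -2.30 (log2) and passed. It was -0.955 without d0 replicate 2, -1.71 without d3F replicate 1 and -1.84 without d3F replicate 2, and passed in none of these.

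Apoc2 (chr7:19671579-19677941, minus strand), the activator of lipoprotein lipase, was at 0.526 and 2.87 CPM in d0, 0 and 0.354 CPM in d3F (0 and 7 counts), and 1.14 and 9.17 CPM in d5FS. Its d3F libraries were the lowest, and its replicates differed most among the 9 genes, with replicate 2 higher in every population by 2.20 to 2.91 on the log2 scale. No change passed in the fit without a block. With the block, Apoc2 fell by 3.50 (log2) between d0 and d3F (adjusted p = 0.035) and rose by 4.92 from d3F to d5FS (adjusted p = 0.0194). In the fits without one library, which had no block and called neither change, the first ranged from -8.10 (without d3F replicate 2) to -1.63 (without d0 replicate 2) and the second from 2.72 (without d5FS replicate 2) to 9.72 (without d3F replicate 2). RefSeq places another gene, Gm44805, over Apoc2 on the same strand and Apoc4 143 bases from it, so reads of Gm44805, which was not analysed here, cannot be told apart from those of Apoc2.

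The contrast of the second step against the first asks whether a gene changed differently from d3F to d5FS than from d0 to d3F. For all 9 genes its estimate was positive, from 2.04 for Apob to 8.21 for Apoc2 on the log2 scale. That of Apoa4 (2.67 ± 10.95) rests on 0 counts in d0 and 2 in d3F. None of the 9 was called by edgeR, compared with 0.413% of all genes called in either direction. At an unadjusted p under 0.05 there were 7 of the 9, all higher (all but Apoa2 and Apoa4), compared with 4.99% of all genes with a positive contrast. DESeq2 called 4 with its Wald test (Apoa1, Apoc1, Apoc2 and Mttp) and 0 with its threshold test. With the replicate block 1 gene passed, Apoc2 (8.42, adjusted p = 0.049), and without d0 replicate 1 Apoc1 passed (3.64, adjusted p = 0.0403). The first and second step share the d3F libraries, which the contrast takes into account.

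Within each library the TPM of Apoe made up 83.7% to 94.1% of the summed TPM of the 9 genes. Apoc1 ranked next in 5 of the 6 libraries, with a range of 4.12% to 11.3% over all 6. In d5FS replicate 2, Apoa1 (5.69%) lay above Apoc1 (4.12%). The third place was held by Apoa2 in the d0 and d3F libraries (0.538% to 3.96%) and by Apoa1 in d5FS replicate 1 (2.79%). Apoa4 was the lowest of the 9 or tied at 0 in all libraries except d5FS replicate 1, where Apoa2 (0.162%) was below it (0.189%). Although Apob had the second-highest CPM in d5FS, its long transcript (13909 bases) put it at 0.533% and 1.07% of the summed TPM. Without Apoe, the 8 other genes summed to 24.7 and 38.6 CPM in d0, 16.3 and 24.5 CPM in d3F, and 229 and 183.9 CPM in d5FS.

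Several of the 9 genes lie in clusters. Apoa1 and Apoa4 share a chr9 cluster with Apoc3 and Apoa5, and Apoe, Apoc1 and Apoc2 share a chr7 cluster with Apoc4. Within 50 kb of the 9 genes RefSeq places 40 other genes, of which 30 were in the files and 20 were tested. From d0 to d5FS, 3 of these 20 were called, 1 higher and 2 lower (12.4% and 10.4% of all genes), and their median log2 fold change was 0.07. With the replicate block 5 were called, 2 higher and 3 lower, with Pcp4l1 (log2 2.37, adjusted p = 0.0164) and Tomm40 (-1.53, adjusted p = 0.00386) added. The shares of all genes given here are those of the fit without the block. The block also raised the number of calls over all genes in both single steps.

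In the chr9 cluster Apoa5, which raises the activity of lipoprotein lipase, was called higher (log2 3.59 ± 1.03, adjusted p = 0.0387). It had 0 and 3 counts in d0 and 15 and 18 counts in d5FS, a scaled ratio of 13.3 with an exact 95% counting interval of 4.16 to 67.6. Apoc3, an inhibitor of lipoprotein lipase that lies 2581 bases from Apoa1, had no count in d0 and d3F and 2 and 3 counts in d5FS, which was too low to test. On either side of the cluster, Sik3 was at a log2 change of 0.19 (adjusted p = 0.733), and Zpr1 fell by 1.21 ± 0.32 (adjusted p = 0.0279). Beside Mttp, Trmt10a fell by 1.16 ± 0.33 from d0 to d5FS (adjusted p = 0.037), from 39.2 and 32.5 CPM to 15.03 and 17.1 CPM, while Mttp rose. RefSeq sets the starts of Mttp and Trmt10a 30 bases apart on opposite strands, and GENCODE lets them overlap. The library kit does not mark strand, so reads of such an overlap cannot be assigned. Beside Apoe, Tomm40 (3 bases away in RefSeq) had a log2 change of -1.51 ± 0.48 with an adjusted p of 0.0516. The 7 tested neighbours of Apom had log2 changes from -0.66 to 0.93 and adjusted p from 0.114 to 0.919.

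**Figure D3:**
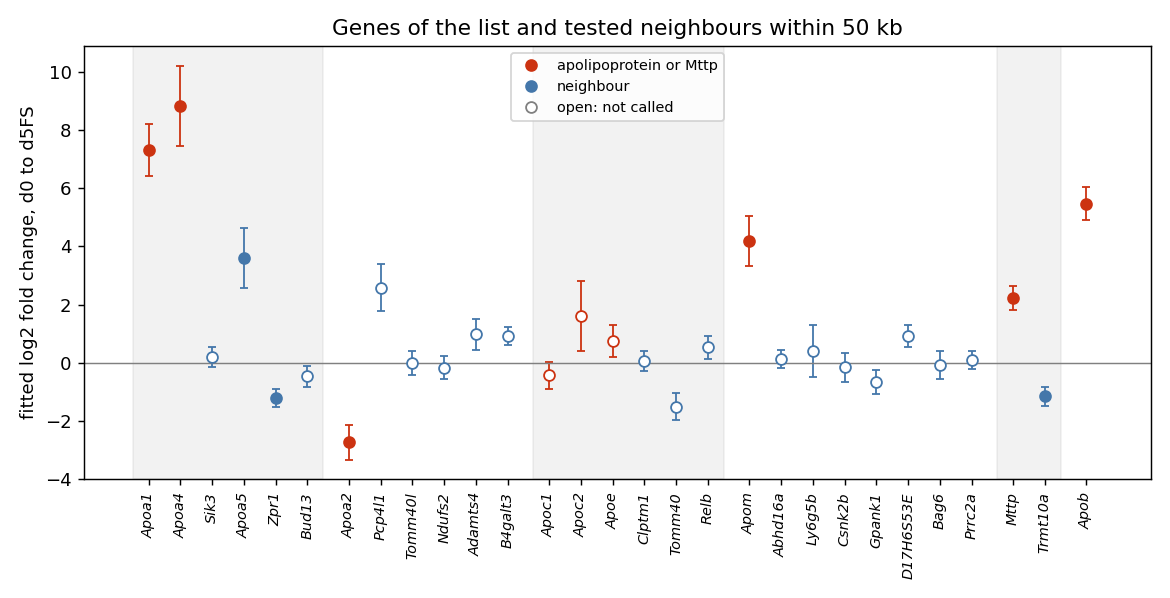
Fitted log2 fold change from d0 to d5FS (vertical axis) of the 9 genes (red) and their tested neighbours within 50 kb (blue), by locus, with bars of 1 SE and filled points for called changes. Of the neighbours, Apoa5 (3.59), Zpr1 (-1.21) and Trmt10a (-1.16) have filled points, and Apob had no tested neighbour.

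For each gene the tested genes with the most similar profile were found as the root mean square difference of log2 CPM, centred on each gene's mean over the 6 samples. Nearest to Apoa1 were Ttr, the thyroxine carrier transthyretin (0.341), and the nuclear receptor Hnf4a (0.568). Nearest to Apob were Cd55 (0.294) and Acta2 (0.332), and nearest to Apoa4 were Rarres1 (0.30) and H19 (0.352). Pla2g12b, which is needed to lipidate Apob particles, was nearest to Apom (0.325), followed by Cd8a (0.336). Cish (0.096) and Lmx1b (0.204) were nearest to Mttp, and Ttll6 (0.138) and Mafa (0.211) to Apoa2. For Apoe these were Tnxb and Tnip2 (both 0.197), and for Apoc1 Fam26e (0.201) and Rasal1 (0.239). Apoc2 had no close profile, with Serpinb6c at 0.774 and Amn at 0.839. Among the 9 genes themselves Apoa4 and Apob were closest (0.582), followed by Apoe and Apoc1 (0.602) and Apoa4 and Apom (0.701).

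The transcription factors known to regulate apolipoprotein genes in liver and yolk sac formed a list of 26, of which 20 were tested. In d5FS 11 of them were higher and 1 was lower than in d0 (12.4% and 10.4% of all genes), with a median log2 fold change of 1.87 compared with 0.02 for all genes. The largest increases were those of Hnf4a (log2 8.39 ± 1.03, adjusted p = 0.00271), Foxa2 (8.11 ± 0.69, adjusted p = 0.00127) and Gata4 (6.84 ± 0.89, adjusted p = 0.00304), and Gata6 rose by 6.10 ± 0.48 (adjusted p = 0.00101). The gene that fell was Nr5a2 (log2 -4.31 ± 0.66, adjusted p = 0.00481), an orphan receptor also active in ESCs, named after its value was seen. Foxa2 was at 0.0439 and 0.308 CPM in d0, 71.1 and 47.9 CPM in d3F, and 36.7 and 59.4 CPM in d5FS, and its level was used in the sort. Hnf4a was at 0.0877 and 0.205 CPM in d0, 0.244 and 2.17 CPM in d3F, and 39.0 and 60.8 CPM in d5FS.

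Of 21 listed genes of particle assembly and secretion, 15 were tested, 2 rose and 1 fell from d0 to d5FS, beside the 12.4% and 10.4% of all genes, and the median log2 fold change was 0.19. Those that rose were Pla2g12b (4.604 ± 1.02, adjusted p = 0.0162) and Soat2, which esterifies cholesterol for particles (4.41 ± 0.83, adjusted p = 0.00973). Aadac, a lipase of the endoplasmic reticulum, fell from 32 and 13 counts in d0 to 0 and 1 counts in d5FS (adjusted p = 0.0186), a ratio 37.3-fold lower with an exact 95% counting interval of 6.36 to 1510. P4hb, the partner subunit of Mttp, was at a log2 change of -0.13 ± 0.32 (adjusted p = 0.796). Without d5FS replicate 1 or without d5FS replicate 2, only Soat2 of this list was called. Without d0 replicate 1 the call of Aadac was lost (adjusted p = 0.0669) and Soat1 was called higher, which made 3 higher and 0 lower.

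Of 17 genes of receptors and uptake, all tested, 6 rose and none fell (12.4% and 10.4% of all genes), with a median of 1.00. With the replicate block 8 rose, but the shares of all genes are those of the fit without it. Among the 6 were the VLDL receptor Vldlr (5.56 ± 0.44, adjusted p = 0.00101), the endocytic receptor Cubn (3.72 ± 0.68, adjusted p = 0.00855), its adaptor Dab2 (2.97 ± 0.74, adjusted p = 0.0241) and the receptor chaperone Lrpap1 (1.81 ± 0.37, adjusted p = 0.0124). Vldlr was at 1.80 and 1.69 CPM in d0, 67.6 and 133.5 CPM in d3F, and 87.6 and 77.8 CPM in d5FS, and so was already high in d3F, where Apoa1, Apoa4 and Apom were not. Without d0 replicate 2 or without d5FS replicate 1, 3 of these 17 genes were called. Of 18 genes of lipases and HDL remodelling, 11 were tested, 1 rose and 1 fell (12.4% and 10.4% of all genes), with a median of 0.35. Lmf1, a lipase chaperone, rose (1.21 ± 0.37, adjusted p = 0.0471), and Angptl4, an inhibitor of lipoprotein lipase, fell (-3.21 ± 0.49, adjusted p = 0.00472). The call of Lmf1 was lost on leaving out any one library (log2 0.87 without d5FS replicate 2 to 1.48 without d5FS replicate 1), while that of Angptl4 was kept. Without d0 replicate 2, Apoa1bp was called higher in place of Lmf1. The replicate block gave 3 calls in this list, with Apoa1bp added. Of 12 other apolipoproteins, 2 were tested, Apoa5 and Clu (log2 0.88 ± 0.87, adjusted p = 0.494), and the other 10 were too low to test. The Apoa5 call was kept without d0 replicate 2 and was lost on leaving out any one of the other 5 libraries (adjusted p from 0.0885 to 0.143) and in both DESeq2 tests (adjusted p = 0.0596 in the Wald test). Without d0 replicate 1, Saa3 was called lower in its place.

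**Figure D4:**
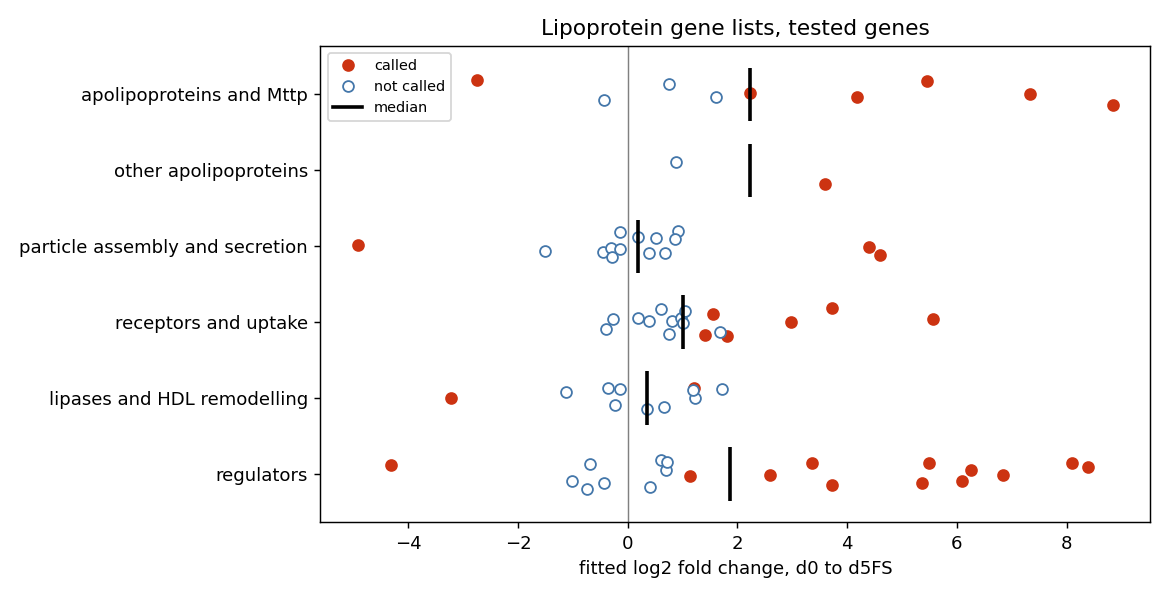
Fitted log2 fold change from d0 to d5FS (horizontal axis) of the tested genes of each list, in filled red where called and open blue where not, with a black line at the median. The medians were 2.24 for the 9 genes, 0.19 for particle assembly and secretion, 1.00 for receptors and uptake and 1.87 for regulators, and vertical offsets within a list carry no value.

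Markers of other cells that make apolipoproteins or accompany the culture were summed in each library. The 10 visceral endoderm markers summed to 39.9 to 83.5 CPM in d0, 30.8 to 33.8 CPM in d3F and 118 to 212 CPM in d5FS. The marker Rhox5 alone held most of the d0 sums, with 25.4 and 75.25 CPM. It was at 15.9 and 14.0 CPM in d3F and 21.8 and 36.3 CPM in d5FS, so the sums understate the change of the other markers. Of the 10 visceral endoderm markers, 6 rose from d0 to d5FS (with the examples Ttr, Afp, Rbp4 and Cubn) and none fell. Over all tested genes, 12.4% were called higher and 10.4% lower in this comparison. None of the 10 was at 0 in both d5FS libraries. Ttr had 0 and 3 counts in d0 and 189 and 352 counts in d5FS, and Afp rose by 7.30 ± 0.94 on the log2 scale (adjusted p = 0.00302). Sox7 (log2 1.23 ± 0.78, adjusted p = 0.281), Amn (0.82 ± 0.64, adjusted p = 0.379), Ihh (1.86 ± 0.70, adjusted p = 0.0862) and Rhox5 (-0.79 ± 0.51, adjusted p = 0.282) did not pass. The 10 definitive endoderm markers summed to 19.0 to 46.4 CPM in d0, 445 to 608 CPM in d3F and 905 to 1430 CPM in d5FS, and their median change was 5.74. The part of visceral endoderm cells in the rise of Apoa1, Apoa4, Apob, Apom and Mttp was not tested. Of 8 fibroblast markers, 7 were tested, 4 rose from d0 to d5FS (Col1a1, Col1a2, Col3a1 and Postn) and none fell (12.4% and 10.4% of all genes). The 8 markers summed to 10.6 to 17.4 CPM in d0, 36.3 to 84.5 CPM in d3F and 197 to 235 CPM in d5FS. Lum was at 0 in both d5FS libraries. Thy1 (log2 -1.62 ± 0.95, adjusted p = 0.245), Dcn (0.47 ± 0.90, adjusted p = 0.738) and Pdgfrb (0.43 ± 0.65, adjusted p = 0.667) did not pass. Of 7 macrophage markers 2 were tested, and none was called in edgeR (Csf1r, adjusted p = 0.0881, and Cd68, adjusted p = 0.131). They summed to 4.87 to 7.11 CPM in d0, 3.37 to 3.99 CPM in d3F and 7.51 to 21.2 CPM in d5FS, with Adgre1 (listed as Emr1) at 0 throughout.

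Replicates 1 and 2 differed with transcript length. For genes under 1000 bases, replicate 2 was higher by a median of 0.39, 0.21 and 0.36 on the log2 scale in d0, d3F and d5FS, and for genes of 8000 bases or more it was lower, with medians of -0.54, -0.28 and -0.53. The differences of Apoa1 (988 bases), Apoc2 (727 bases) and Apom (715 bases) were larger than those medians, with replicate 2 higher in all 3 populations by 0.99 to 1.88, 2.20 to 2.91 and 0.89 to 1.48. Not all short transcripts showed this, since replicate 2 was lower for Apoa2 (521 bases) in d3F (-0.58) and for Apoc1 (435 bases) in d5FS (-0.24). Apob, with the longest transcript, was lower in replicate 2 in d0 (-0.76) and d5FS (-1.05) and higher in d3F (0.89). In the study's sample list, the pair of libraries of a population consists of an mRNA and a total RNA library, without replicate numbers, so library type and replicate number cannot be told apart. With the replicate number as a block, 7 of the 9 genes rose from d3F to d5FS, all but Apoa2 and Apoc1, and 2 fell from d0 to d3F, Apoa2 and Apoc2. From d0 to d5FS the block changed no call among the 9.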

How the data were processed

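RNA-seq libraries of d0, d3F and d5FS cells (2 each) were analysed. Per the methods and labels, ribosomal RNA was depleted, TruSeq V2 libraries were sequenced as paired ends, and reads were aligned to mm10 with STAR. The study's sample list instead names the pair of libraries of each population as an mRNA and a total RNA library, so the replicates may differ in preparation. The versions of STAR and RSEM and the annotation release are not given in the sources used here. The authors deposited a gene table per library with expected counts, which RSEM estimates per gene without normalization. The deposited TPM values were scaled by RSEM to a common total after division by effective length. The FPKM values deposited by the authors were not used, and the deposited gene lengths are means weighted by transcript abundance.

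The expected counts were rounded. With edgeR 4.0.16 in R 4.3.3, filterByExpr kept 14539 of 24054 genes, TMM factors were computed (0.87717 to 1.0822), and the 6 libraries entered one quasi-likelihood fit with a mean for each population, 3 residual degrees of freedom and a prior count of 0.125. The standard error was taken as the ratio of the log2 fold change to the root of its F statistic. The contrast of the second step against the first was called by its adjusted p alone. An exact permutation test of 2 against 2 libraries cannot go below p = 0.33, so none was run. All 9 genes passed the filter. Genes without a coding RefSeq transcript took 54.32% to 76.87% of TPM, so TPM was compared only within a library.

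Replicate numbers were taken from the labels. Across genes, the difference between replicates 1 and 2 of d0 correlated with that of d3F (r = 0.314) and of d5FS (0.324), and d3F correlated with d5FS (0.278), so the numbers were treated as pairing the libraries. The result with this block is given where it changes a call of the 9 genes, their neighbours or a list. The alternatives were DESeq2 1.42.0 size factors, its Wald test and its threshold test (for a log2 fold change over 1), a fit of every gene with at least 1 count, a minimum of 10 counts in all samples, a fit of only the populations compared, a fit without each library, TPM rescaled by TMM, and promoters with 50 more bases. A fit and a TPM scale restricted to coding genes were chosen after seeing the data. The edgeR fits with and without the block and the DESeq2 Wald test were tested on simulated data, in which a larger share of the calls of the Wald test was false than of either edgeR fit. The simulated counts used the spread estimated by edgeR and held no replicate difference, so they cannot rank these fits for the data here.

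The 9 genes and all gene lists were chosen with earlier results of these data known. Named were the 9 genes, the called genes of each list with the largest change from d0 to d5FS (up to 4), neighbours within 50 kb, the 2 most similar profiles of each gene (log2 CPM with a prior count of 2), and Foxa2, Hnf4a, Gata4 and Gata6. One gene that this rule names is not reported here. Genes named to give members that did not pass, Nr5a2 and the single neighbours described were picked from these after their values were seen. GENCODE M21 (mm10) gave gene positions, and RefSeq (GRCm38.p6) gave neighbours and promoters. Python 3.11.15 with pandas 2.3.3, numpy 2.4.6, scipy 1.17.1 and matplotlib 3.10.9 was used for summaries.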

Additional observations from a re-analysis of the deposited data

How the results depend on the processing

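With 2 libraries per population, the number of calls depended strongly on the fit. From d0 to d3F, 683 genes were called, and 1516 by the DESeq2 Wald test, 384 by its threshold test for a log2 fold change over 1, 1933 with no filter on low counts, 357 with at least 10 counts in every sample, 1320 with the replicate block, 430 with only the populations compared, and 97 to 977 without one library. From d3F to d5FS, 224 genes were called, and under the same alternatives 1094 by the Wald test, 1423 with no filter, 144 with 10 counts, 918 with the block, 529 with only the populations compared, and 0 to 496 without one library. The 0 was the edgeR fit without d3F replicate 1, in which 1206 of 15324 genes had an unadjusted p under 0.05. From d0 to d5FS, 3313 genes were called, 1034 by the threshold test and 1047 to 3037 without one library. For the second step against the first, 60 genes were called, and 595 by the Wald test, 170 by the threshold test, 908 with no filter, 12 with 10 counts, 172 with the block, and 0 to 208 without one library (0 without d5FS replicate 1, with 1417 of 15322 genes at an unadjusted p under 0.05).

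Of the 9 genes, the calls from d0 to d3F (0) became 3 by the Wald test, 4 with no filter, 1 with 10 counts, 2 with the block, and 0 to 2 without one library. From d3F to d5FS, 4 became 7 by the Wald test, with no filter and with the block, 2 with 10 counts (5 of the 9 genes tested), and 0 to 5 without one library. From d0 to d5FS, 6 became 4 by the threshold test, which lost Apoa2 and Mttp, and 3 with 10 counts (5 of the 9 genes tested). With no filter Apoc2 was added in this comparison. Its calls that were lost without one library are given with Apoa2 and Apom above. For the second step against the first, 0 became 4 by the Wald test, 6 with no filter, 1 with the block, and 0 to 1 without one library. The block changed no other call of the 9 genes. Among the lists from d0 to d5FS, the other apolipoproteins went from 1 to 0 calls by both DESeq2 tests and with 10 counts and to 0 to 1 without one library, particle assembly and secretion from 3 to 1 with 10 counts and 1 to 3 without one library, receptors and uptake from 6 to 3 by the threshold test and 3 to 6 without one library, lipases and HDL remodelling from 2 to 1 by that test, with DESeq2 size factors, with only the populations compared, and 1 to 2 without one library, and regulators from 12 to 5 with 10 counts. The stricter filter tests fewer genes. The cause of the other differences was not tested.

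Of 476 log2 fold changes of the 9 genes under an alternative, 20 lost and 39 gained a call, and 10 reversed, all of changes that were not called and all on leaving out a library. From d0 to d3F the fits without one library gave -0.389 to 2.416 for Apoa1 (lowest without d3F replicate 2), -1.498 to 0.161 for Apoe (above 0 without d0 replicate 2), -1.744 to 0.483 for Apom (above 0 without d0 replicate 2, 0.408, and d3F replicate 1), and -0.533 to 0.380 for Mttp (above 0 without d0 replicate 1 and d3F replicate 1, 0.041). The range from d3F to d5FS was -0.866 to 0.054 for Apoa2 (above 0 without d5FS replicate 1 and d3F replicate 1, 0.020). From d0 to d5FS it was -0.966 to 0.391 for Apoc1 (above 0 without d0 replicate 2) and -0.560 to 3.276 for Apoc2 (below 0 without d5FS replicate 2). Counts of 0 to 17 in d0 and d3F limit what can be said of Apoa4, Apoa1 and Apom before d5FS. The 0 and 7 counts of Apoc2 in d3F limit what can be said of its change in either step.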
